A study of Rattus norvegicus with 6 samples.

Results

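Voltage-gated calcium, sodium and potassium channels and their relatives are described here across 6 sciatic nerve libraries. The genes were taken by symbol: those beginning with Cacna, Cacnb or Cacng, those of the form Scn with a number and a or b, and those beginning with Kcn, one or more further letters and a number, leaving out Scn7a, Kcnk2 and Kcnk4. The rule took 119 of the 21028 gene models in the deposited table and used no measured value. A mean of at least 1 FPKM over the 6 libraries was reached by 59 of the 119, and only these 59 were tested. FPKM is a fragment count divided by gene model length and by library depth. The study assigned 6 female wild-type rats at random to 2 groups of 3, with age, strain and time after surgery not given in the sources used here. The PCL group had a sciatic nerve defect bridged by a PCL conduit and had no ultrasound, and the PLLARS_US group had a PLLARS conduit and ultrasound. Conduit and ultrasound differed together and cannot be told apart. The series title describes the device as piezoelectric, that is, turning vibration into charge, and names axon outgrowth as the outcome of interest. Below, 3 values in a row are replicates 1, 2 and 3, always with the PCL libraries first.

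Voltage-gated channels are membrane proteins that open when the membrane potential changes. Sodium channels carry the upstroke of the action potential, potassium channels carry the repolarizing current, and calcium channels couple the electrical signal to contraction, secretion or transcription. In a myelinated nerve the axonal channels are clustered at the node and under the neighbouring myelin, while the messenger RNA of a neuron's channels is made mainly in its cell body, outside the nerve trunk. Schwann cells, muscle fibres, vessel walls and immune cells have channels of their own. The rule also takes relatives that voltage does not open, such as the inward rectifiers, the 2-pore-domain channels and the calcium-activated potassium channels, with the accessory subunits that set how pores are trafficked and gated.

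The 6 libraries held 13146 to 13800 gene models at 1 FPKM or more, and the steps between low values of small models placed their depths between 15320000 and 16680000 fragments. An FPKM of 1 thus stood for 15.3 to 16.7 fragments per kilobase of gene model. Tissue content differed between libraries of 1 group. The skeletal muscle list, 17 of 20 genes found, summed to 129.6, 1552 and 11310 FPKM with PCL and 17580, 33.57 and 3442 FPKM with PLLARS_US, and Myh7 and Myl2 were each listed at 0 in at least 1 library. The myelinating Schwann cell list, 14 of 14 genes found and none at 0, summed to 923.7, 4478 and 5464 FPKM with PCL and 3883, 1404 and 4975 FPKM with PLLARS_US. PCL replicate 3 and PLLARS_US replicate 1 were thus the richest in muscle RNA, while PCL replicate 1 and PLLARS_US replicate 2 were the poorest in both myelin and muscle RNA. The neuron and axon list, 16 of 16 genes found, summed to 58.75 to 267.8 FPKM in the PCL group and 48.49 to 264.7 FPKM in the PLLARS_US group, with Elavl4, Rbfox3, Chat and Tac1 listed at 0 in at least 1 library. In whole tissue, fewer cells of a type and less RNA per cell cannot be told apart.

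No channel gene passed the test between the PLLARS_US and PCL groups, as none of the 13720 tested genes did (0.0% called at a limma adjusted p under 0.05). The smallest adjusted p among the 59 was 0.565. At an unadjusted limma p under 0.05 there were 6, with Kcnn3 among those higher and Kcnab1, Kcnj9 and Kcnk13 lower in the PLLARS_US group. That was 3 of 59 in each direction, against 1.99% of all tested genes higher and 5.01% lower. For the same 3 higher genes each PLLARS_US library exceeded each PCL library, against 4.33% of all tested genes. All PLLARS_US libraries lay below all PCL libraries for 6 (Kcnab1, Kcnj9, Kcnk13, Cacna1c, Kcne2 and Kcnj14), against 10.0% of all tested genes. The log2 difference on the log2(FPKM + 1) scale was positive for 30 and negative for 29 of the 59. The split moved to 21 and 38 without PLLARS_US replicate 1, to 23 and 36 without PCL replicate 1, and to 20 and 39 with array weights. It moved the other way, to 34 and 25, without PCL replicate 2 and also without PLLARS_US replicate 2, and to 33 and 26 with quantile normalization. The median log2 difference was 0.01, with quartiles of -0.25 and 0.29, beside a median of -0.04 over all tested genes, with quartiles of -0.22 and 0.13.

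**Figure D1:**
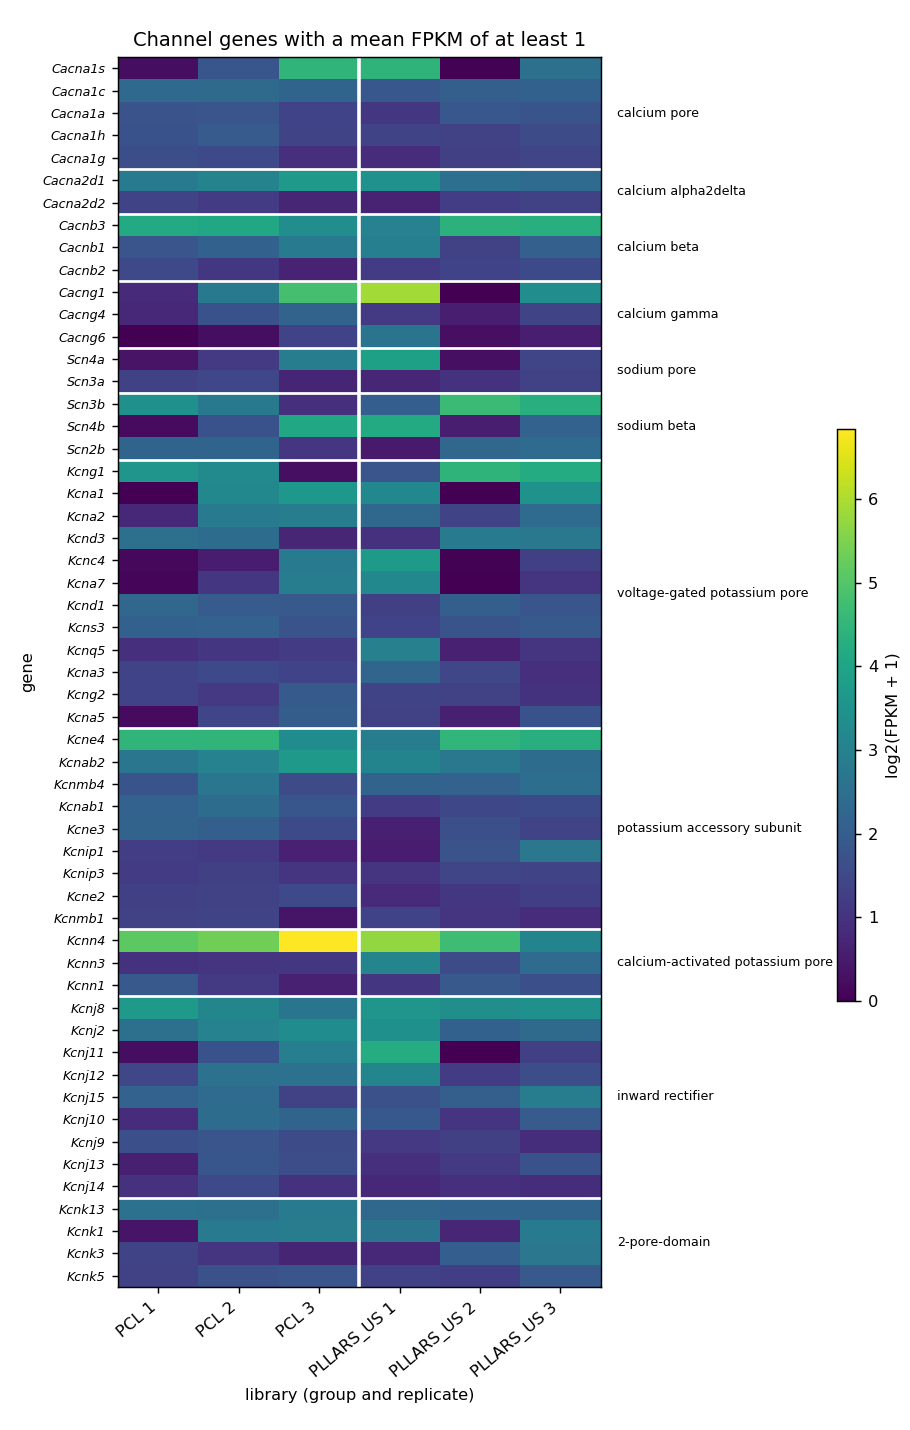
Levels of 55 of the 59 channel genes with a mean of at least 1 FPKM, as log2(FPKM + 1) in each of the 6 libraries, grouped by channel family with a white line between the PCL and PLLARS_US groups. Rows such as Cacna1s, Cacng1, Scn4a and Kcna1 vary more within a group than between the groups.

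Among the calcium channel pores, 5 of 10 genes reached the mean of 1 FPKM, and their median log2 difference was -0.16. Cacna1s, the pore and voltage sensor of the skeletal muscle dihydropyridine receptor, was listed at 0.188, 2.55 and 21.0 FPKM with PCL and 20.8, 0.0223 and 4.77 FPKM with PLLARS_US. The muscle-rich libraries of both groups stood at 20.8 and 21.0 FPKM and the others at 4.77 or less, so the groups overlapped, with a log2 difference of 0.16 (SE 1.44, limma adjusted p = 0.998). Cacna1c, the L-type pore of smooth muscle, heart and brain, was listed at 4.02, 4.17 and 3.61 FPKM with PCL and 2.65, 3.18 and 3.38 FPKM with PLLARS_US. Its groups did not overlap and lay close together, with a log2 difference of -0.28 (SE 0.16, limma adjusted p = 0.820). The accessory subunits Cacng1, Cacnb1 and Cacna2d1 of the muscle receptor shared its highest pair of libraries, but not the whole order. Cacng1, its gamma subunit, was listed at 0.802, 5.79 and 27.1 FPKM with PCL and 57.8, 0 and 9.28 FPKM with PLLARS_US, with a log2 difference of 0.27 (SE 1.66). Cacnb1, its beta subunit, was listed at 2.46, 3.32 and 6.09 FPKM with PCL and 6.72, 1.48 and 3.27 FPKM with PLLARS_US, and Cacna2d1, its alpha2delta subunit and a target of gabapentin, at 6.08, 7.38 and 11.7 FPKM with PCL and 10.0, 4.67 and 4.20 FPKM with PLLARS_US. Both had their 2 highest values in the muscle-rich libraries, with log2 differences of -0.12 (SE 0.48) and -0.41 (SE 0.36). Cacnb3, a beta subunit of many non-muscle calcium channels, ran the other way at 17.2, 16.0 and 9.15 FPKM with PCL and 7.20, 19.9 and 18.7 FPKM with PLLARS_US. It was lowest in the muscle-rich library of each group, and the log2 difference was 0.04 (SE 0.43). Cacna2d2, a second alpha2delta subunit, was listed at 1.67, 1.29 and 0.657 FPKM with PCL and 0.606, 1.37 and 1.48 FPKM with PLLARS_US and was lowest in the same libraries. Cacng4, a gamma subunit that also binds AMPA receptors, was listed at 0.732, 2.29 and 3.48 FPKM with PCL and 1.23, 0.488 and 1.66 FPKM with PLLARS_US and was lowest in the myelin-poor pair.

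The 250 bases before the start of 3 muscle channel genes, the pores Cacna1s and Scn4a and the subunit Scn4b, are shown because the 3 genes had their 2 highest levels in the muscle-rich pair, and because each holds CAGCTG, a form of the E-box that myogenic factors such as MyoD can bind. Sequences are from RefSeq, rat build GRCr8, 5′ to 3′ on the gene's strand, and the capitals mark CAGCTG, which reads the same on both strands.
Cacna1s (chr13:50045418-50045667, plus strand): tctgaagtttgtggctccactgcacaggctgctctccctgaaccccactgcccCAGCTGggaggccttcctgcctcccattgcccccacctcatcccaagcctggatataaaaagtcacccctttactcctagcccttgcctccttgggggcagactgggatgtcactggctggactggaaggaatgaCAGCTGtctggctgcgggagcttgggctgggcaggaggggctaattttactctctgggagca
Scn4a (chr10:91796325-91796574, minus strand): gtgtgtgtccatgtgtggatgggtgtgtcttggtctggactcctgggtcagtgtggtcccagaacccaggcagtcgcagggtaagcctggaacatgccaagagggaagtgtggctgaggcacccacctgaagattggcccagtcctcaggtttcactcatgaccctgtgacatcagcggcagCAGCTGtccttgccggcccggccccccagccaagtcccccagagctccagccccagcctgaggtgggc
Scn4b (chr8:54343623-54343872, plus strand): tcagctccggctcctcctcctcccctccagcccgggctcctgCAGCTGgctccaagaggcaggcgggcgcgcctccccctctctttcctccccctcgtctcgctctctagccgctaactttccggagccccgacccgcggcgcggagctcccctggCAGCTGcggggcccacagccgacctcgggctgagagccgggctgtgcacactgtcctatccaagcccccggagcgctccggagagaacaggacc
The matches began 197 and 62 bases before the start of Cacna1s, 68 bases before that of Scn4a, and 208 and 94 bases before that of Scn4b. Of the 16 channel genes whose 2 highest libraries were the muscle-rich pair, 10 had a window in the RefSeq table and 5 of these (50%) held CAGCTG, Kcnj2 and Kcnq5 being the others. It was held by 7 of the 27 other channel genes of that mean level with a window (25.9%), by 19 of all 79 channel genes with one (24.1%) and by 3274 of 27457 genes in the table (11.9%). A match says only that the letters stand in the window.

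Among the sodium channel pores, 3 of 9 genes reached the mean of 1 FPKM. Scn4a, the pore of the adult skeletal muscle sodium channel, was listed at 0.291, 1.24 and 6.28 FPKM with PCL and 13.8, 0.204 and 1.71 FPKM with PLLARS_US. Like Cacna1s it was highest in the muscle-rich pair, and the log2 difference was 0.40 (SE 1.06). Scn3a, a pore best known from developing neurons, was listed at 1.56, 1.76 and 0.632 FPKM with PCL and 0.654, 1.02 and 1.51 FPKM with PLLARS_US, with overlapping groups. The pores of mature axons and sensory neurons were all below the mean of 1 FPKM. Scn9a and Scn8a ranged from 0.219 to 0.338 FPKM and from 0.0625 to 0.439 FPKM over the 6 libraries, and Scn10a and Scn11a, sensory neuron pores, did not exceed 0.0376 and 0.0312 FPKM.

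All 4 sodium channel beta subunits, which bind the pore and also act in cell adhesion, reached the mean of 1 FPKM. Scn3b was listed at 9.69, 5.79 and 0.925 FPKM with PCL and 3.10, 24.5 and 18.8 FPKM with PLLARS_US. It was lowest in the muscle-rich library of each group, the groups overlapped, and there was a log2 difference of 1.29 (SE 0.90, limma adjusted p = 0.852). With PCL replicate 3 left out the difference was 0.58, with PLLARS_US replicate 2 left out 0.79, and with PLLARS_US replicate 1 left out 2.11. Leaving out both muscle-rich libraries gave 1.40 (SE 0.27, limma adjusted p = 0.262). Scn2b, listed at 3.59, 3.64 and 1.10 FPKM with PCL and 0.412, 3.82 and 4.25 FPKM with PLLARS_US, had its 2 lowest values in the same libraries. Scn4b, a beta subunit of muscle, heart and some neurons, was the opposite, at 0.153, 2.33 and 16.1 FPKM with PCL and 17.2, 0.478 and 3.41 FPKM with PLLARS_US, with its 2 highest values there.

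**Figure D2:**
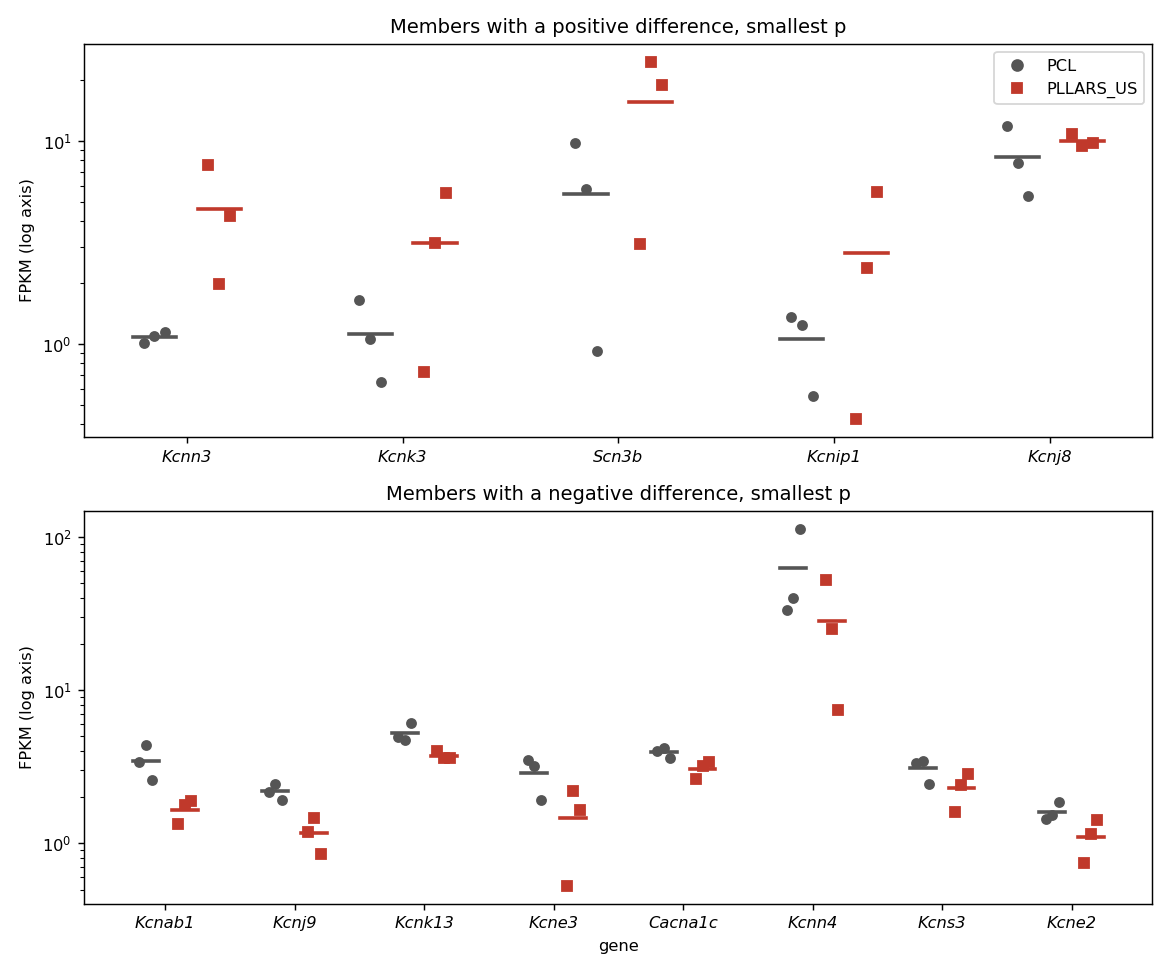
FPKM (log axis) of channel genes with the smallest p, 5 with a positive and 8 with a negative difference, with 1 point per library and a bar at the mean of each group of 3. The PLLARS_US points lie wholly above the PCL points for Kcnn3, and the Kcnn4 points spread widely in both groups.

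Of the calcium-activated potassium pores, 3 of 7 genes reached the mean of 1 FPKM. Kcnn3, the SK3 channel, was listed at 1.01, 1.09 and 1.15 FPKM with PCL and 7.57, 1.98 and 4.23 FPKM with PLLARS_US. The PCL libraries lay close together, and the PLLARS_US libraries were all higher and more spread, at 1.08 ± 0.0691 FPKM (SD, n = 3) in the PCL group and 4.60 ± 2.82 FPKM (SD, n = 3) in the PLLARS_US group. There was a log2 difference of 1.3 (SE 0.39, limma adjusted p = 0.565), and leaving out 1 library at a time gave 0.925 to 1.69. Kcnn4, the intermediate-conductance channel of macrophages, lymphocytes and red cells, was listed at 33.5, 39.6 and 113 FPKM with PCL and 52.3, 25.1 and 7.43 FPKM with PLLARS_US. PCL replicate 3 was far above the rest, PLLARS_US replicate 3 far below, and the groups overlapped, with a log2 difference of -1.26 (SE 0.77, limma adjusted p = 0.840). Leaving out PCL replicate 3 gave -0.72, leaving out PLLARS_US replicate 3 gave -0.54, and leaving out any other library gave -1.87 to -1.36. The macrophage list, 12 of 12 genes found and none at 0, summed to 5840, 5022 and 8276 FPKM with PCL and 11430, 6462 and 3375 FPKM with PLLARS_US. A list of osteoclast and giant cell genes, chosen after values were seen, had 9 of 9 found and none at 0, and summed to 1281, 2980 and 8009 FPKM with PCL and 2612, 1028 and 514.1 FPKM with PLLARS_US. PCL replicate 3 was highest and PLLARS_US replicate 3 lowest for both the osteoclast and giant cell list and Kcnn4. The macrophage sum was also lowest in PLLARS_US replicate 3, but highest in PLLARS_US replicate 1. Lyz2 carried much of that sum, at 1541 FPKM in PLLARS_US replicate 3 and 9234 FPKM in PLLARS_US replicate 1. C1qa, Cd163, Adgre1 and Mrc1 of the macrophage list were instead highest in PLLARS_US replicate 3. Within the macrophage list, Cd68 ranked the libraries as Kcnn4 did (179, 228, 529 with PCL, 464, 163, 107 FPKM with PLLARS_US). C1qc did not (397, 352, 289 with PCL, 475, 388, 495 FPKM with PLLARS_US). The part of either list in the Kcnn4 levels was not tested. Kcnn1, the SK1 channel, was listed at 2.72, 1.24 and 0.545 FPKM with PCL and 1.11, 2.77 and 2.16 FPKM with PLLARS_US, with overlapping groups.

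Of 35 voltage-gated potassium pores, 14 reached the mean of 1 FPKM, and their median log2 difference was 0.06. Kcna1 and Kcna2, the Kv1 pores that sit beside the node under the myelin, split the libraries across the groups. Kcna1 was listed at 0, 8.21 and 11.6 FPKM with PCL and 8.16, 0 and 10.1 FPKM with PLLARS_US, and Kcna2 at 0.738, 6.10 and 6.43 FPKM with PCL and 3.83, 1.63 and 4.20 FPKM with PLLARS_US. Both were lowest in PCL replicate 1 and PLLARS_US replicate 2, the libraries poorest in myelin RNA, and their log2 differences were -0.06 (SE 1.3) and -0.16 (SE 0.63). Kcna5, a Kv1 pore reported in Schwann cells and vessels, was listed at 0.144, 1.67 and 3.08 FPKM with PCL and 1.55, 0.513 and 2.30 FPKM with PLLARS_US, with the same lowest pair. Kcnc4 and Kcna7, pores found in skeletal muscle, were highest in the muscle-rich pair. Kcnc4 was listed at 0.115, 0.463 and 6.16 FPKM with PCL and 12.3, 0.0217 and 1.44 FPKM with PLLARS_US, and Kcna7 at 0.0727, 1.12 and 6.41 FPKM with PCL and 8.10, 0 and 1.07 FPKM with PLLARS_US. Kcng1, a silent partner of Kv2 pores, was listed at 10.8, 8.40 and 0.218 FPKM with PCL and 2.51, 20.7 and 17.6 FPKM with PLLARS_US, and Kcnd3, an A-type pore, at 4.75, 4.30 and 0.650 FPKM with PCL and 0.959, 6.0 and 5.65 FPKM with PLLARS_US. Both were lowest in the muscle-rich libraries, and their groups overlapped. Kcns3, a silent subunit, was listed at 3.35, 3.47 and 2.43 FPKM with PCL and 1.61, 2.40 and 2.84 FPKM with PLLARS_US, with overlapping groups and a log2 difference of -0.32 (SE 0.22) that was -0.17 without PLLARS_US replicate 1. Kcna3, a Kv1 pore of T cells and macrophages, was listed at 1.63, 1.87 and 1.57 FPKM with PCL and 3.67, 1.76 and 0.939 FPKM with PLLARS_US. It shares its position with a second gene model on the same strand, so its value is uncertain.

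The accessory subunits of potassium channels had 9 of 16 genes at the mean of 1 FPKM and a median log2 difference of -0.21. Kcnab1, a beta subunit of Kv1 pores, was listed at 3.40, 4.36 and 2.58 FPKM with PCL and 1.33, 1.77 and 1.89 FPKM with PLLARS_US. Each PLLARS_US library stood below each PCL library, at 3.45 ± 0.893 FPKM (SD, n = 3) in the PCL group and 1.66 ± 0.294 FPKM (SD, n = 3) in the PLLARS_US group, with a log2 difference of -0.73 (SE 0.22, limma adjusted p = 0.565). Kcnab2, the second Kv1 beta subunit, was listed at 5.46, 7.23 and 11.7 FPKM with PCL and 7.46, 5.64 and 4.35 FPKM with PLLARS_US and had its 2 highest values in the muscle-rich pair. Kcne4, a single-pass partner of several pores, was the highest of the family by mean, at 21.4, 21.4 and 9.05 FPKM with PCL and 6.51, 21.5 and 18.4 FPKM with PLLARS_US. It was lowest in the muscle-rich library of each group, with a log2 difference of -0.21 (SE 0.52). Kcne3 was listed at 3.50, 3.21 and 1.92 FPKM with PCL and 0.528, 2.19 and 1.66 FPKM with PLLARS_US and Kcne2, which pairs with KCNQ and other pores, at 1.44, 1.54 and 1.85 FPKM with PCL and 0.747, 1.15 and 1.42 FPKM with PLLARS_US. The groups of Kcne2 did not overlap and those of Kcne3 did, with log2 differences of -0.32 (SE 0.22) and -0.70 (SE 0.34). Leaving out PLLARS_US replicate 1 brought them to -0.19 and -0.39. Kcnip1, a partner of Kv4 pores, was listed at 1.36, 1.24 and 0.554 FPKM with PCL and 0.424, 2.36 and 5.58 FPKM with PLLARS_US. Its gene model overlaps Kcnmb1, the BK channel beta subunit of smooth muscle, on the opposite strand, and strand was not stated for the counting, so the values of these 2 genes are uncertain. Its log2 difference of 0.65 (SE 0.57) was 0.12 when PLLARS_US replicate 3 was left out and 1.22 when PLLARS_US replicate 1 was left out.

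The inward rectifiers had 9 of 13 genes at the mean of 1 FPKM and a median log2 difference of -0.21. Kcnj8, the ATP-sensitive pore of pericytes and vascular smooth muscle, was listed at 11.8, 7.79 and 5.33 FPKM with PCL and 10.8, 9.42 and 9.72 FPKM with PLLARS_US, with a log2 difference of 0.29 (SE 0.27, limma adjusted p = 0.901). The mural and smooth muscle list, 12 of 12 genes found and none at 0, summed to 605.4 to 1158 FPKM in the PCL group and 767.1 to 957.5 FPKM in the PLLARS_US group. Leaving out PCL replicate 3 moved the Kcnj8 difference to 0.05, leaving out PCL replicate 1 moved it to 0.56, and without both muscle-rich libraries it was -0.00682. Kcnj11, the ATP-sensitive pore of skeletal muscle and pancreatic beta cells, was listed at 0.194, 2.28 and 6.66 FPKM with PCL and 17.9, 0 and 1.43 FPKM with PLLARS_US. It was highest in the muscle-rich pair, as was Kcnj2, the classical inward rectifier, listed at 4.74, 7.15 and 8.99 FPKM with PCL and 9.83, 3.39 and 4.15 FPKM with PLLARS_US. Kcnj10, the glial potassium-buffering pore Kir4.1, was listed at 0.827, 4.34 and 3.63 FPKM with PCL and 2.67, 1.05 and 2.88 FPKM with PLLARS_US and was lowest in the libraries poorest in myelin RNA. The same pair was lowest for Kcnj12, a strong inward rectifier, listed at 1.73, 5.0 and 4.92 FPKM with PCL and 7.85, 1.29 and 2.08 FPKM with PLLARS_US. Kcnj9, a subunit of G protein-gated channels, was listed at 2.18, 2.46 and 1.93 FPKM with PCL and 1.19, 1.46 and 0.859 FPKM with PLLARS_US. The PLLARS_US libraries all lay below the PCL libraries, with a log2 difference of -0.56 (SE 0.21, limma adjusted p = 0.655). Of the 2-pore-domain channels, which carry background potassium current, 4 of 11 reached the mean of 1 FPKM. Kcnk13, known from microglia and other immune cells, was listed at 4.98, 4.70 and 6.13 FPKM with PCL and 4.0, 3.59 and 3.59 FPKM with PLLARS_US, with non-overlapping groups and a log2 difference of -0.40 (SE 0.15, limma adjusted p = 0.682). Kcnk1 was listed at 0.307, 5.86 and 6.50 FPKM with PCL and 5.20, 0.678 and 6.19 FPKM with PLLARS_US and followed the myelin-poor split. Kcnk3, an acid-sensitive background channel, was listed at 1.65, 1.06 and 0.647 FPKM with PCL and 0.726, 3.14 and 5.54 FPKM with PLLARS_US, with overlapping groups. Its log2 difference of 0.79 (SE 0.51) was 0.36 when PLLARS_US replicate 3 was left out and 1.32 when PLLARS_US replicate 1 was left out. Kcnk5, an alkaline-activated background channel, was listed at 1.49, 2.21 and 2.46 FPKM with PCL and 1.52, 1.39 and 2.75 FPKM with PLLARS_US and was lowest in the myelin-poor pair.

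Across the 59 genes, 3 orders of the libraries recurred. The 2 highest libraries were the muscle-rich pair for 16 (27.1%), against 12.1% of all tested genes. That order was also held by 13 of the 15 tested genes of the skeletal muscle list, a count built in because that list picked the pair. The summed macrophage list was highest in that pair too, and 4 of its 12 tested genes had the order. Kcnn4 was among the 16. The 2 lowest libraries were the myelin-poor pair for 18 (30.5%), against 6.75% of all tested genes. In the myelin list, which picked that pair, so that its count is built in too, 13 of 14 genes had that order. So did 14 of the 15 tested genes of the skeletal muscle list and 13 of the 17 tested genes of a list for excitation-contraction coupling. Since the same pair was poorest in muscle RNA, 9 genes had both orders. The other 9 (15.3%, against 3.45% of all tested genes) included Kcna1, Kcna2, Kcnk1, Kcnj10, Kcna5, Cacng4, Kcnj12 and Kcnk5. The 2 lowest libraries were the muscle-rich pair for 15 (25.4%), against 32.3% of all tested genes, an order added after values were seen. The repair and lineage Schwann cell list, 13 of 14 genes found with Olig1 at 0 in at least 1 library, summed to 907.7, 852.0 and 338.8 FPKM with PCL and 417.6, 1259 and 1226 FPKM with PLLARS_US. It was lowest in the muscle-rich pair too. So were the summed lists of fibroblast, endothelial, neuron and axon, and node of Ranvier and paranode genes. The sum for node and paranode rested largely on Sptbn1 (256, 279, 86.6 with PCL, 140, 425, 438 FPKM with PLLARS_US). By mean log2(FPKM + 1) that list was lowest in PCL replicate 1 and PLLARS_US replicate 1, at 2.3 and 2.32, beside 2.36 in PCL replicate 3. In the neuron and axon list Gap43 and Uchl1 were lowest in the muscle-rich pair, and Prph was highest there. None of the 3 orders was found for 19 genes, which included all 6 with an unadjusted p under 0.05. Each order pairs 1 library of each group, and the groups of these 6 genes did not overlap. None of the 6 could therefore have had an order, and its absence says nothing about tissue content. The shares given for the orders describe the libraries and were not tested.

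**Figure D3:**
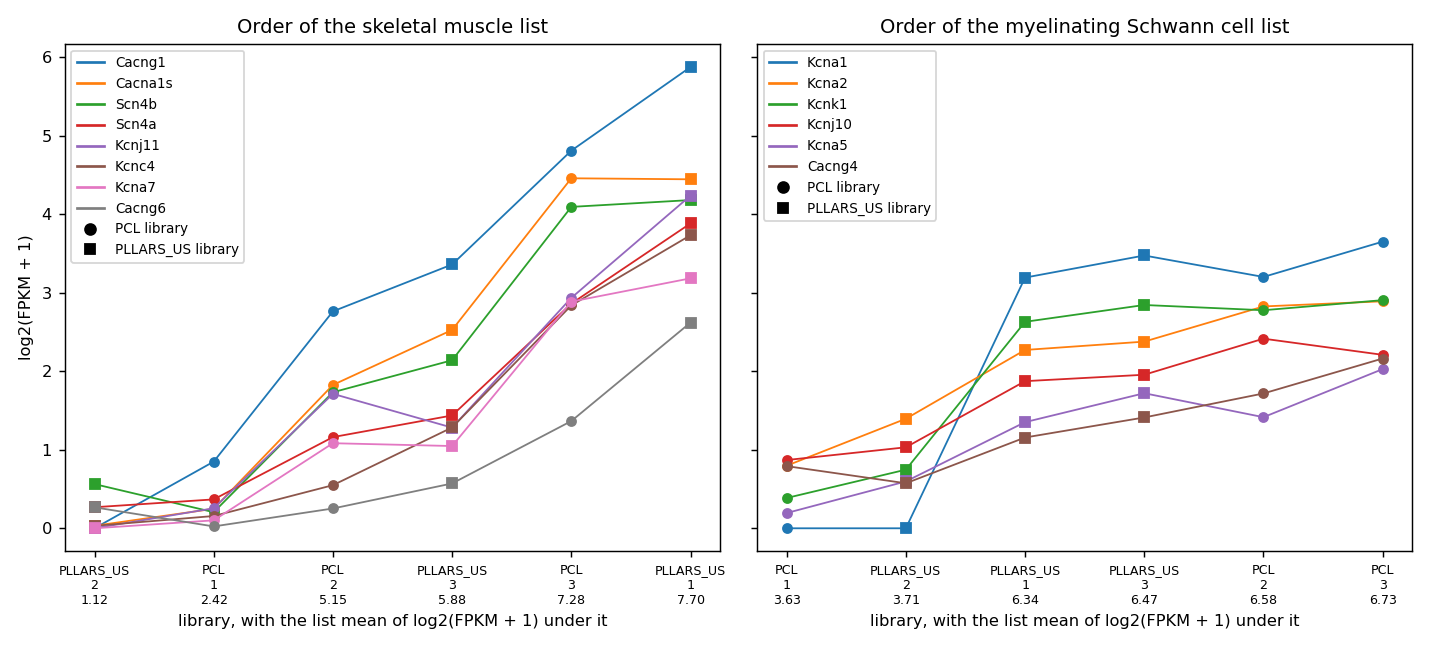
Levels of channel genes as log2(FPKM + 1), with libraries ordered by the mean level of the skeletal muscle list (left) and of the myelinating Schwann cell list (right), circles for PCL and squares for PLLARS_US. On the left the levels climb towards PCL replicate 3 and PLLARS_US replicate 1, and on the right PCL replicate 1 and PLLARS_US replicate 2 stand below the other libraries. The genes drawn were picked from those with the muscle order (left) and the myelin order (right), so the likeness to the lists is built in.

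Partners of these channels were followed by list. Of the 18 genes listed for excitation-contraction coupling, 17 were tested, none passed, and 12 had their 2 highest libraries in the muscle-rich pair. Ryr1, the calcium release channel that Cacna1s opens, was listed at 0.538, 3.88 and 25.9 FPKM with PCL and 78.6, 0.0986 and 9.52 FPKM with PLLARS_US. Jph2, which ties the membranes of the coupling site together, was listed at 9.42, 9.75 and 19.4 FPKM with PCL and 4.97, 5.52 and 6.58 FPKM with PLLARS_US. It was the only 1 of the 17 with an unadjusted limma p under 0.05, against 1.99% of all tested genes higher and 5.01% lower. Of 20 genes listed for the node of Ranvier and paranode, 13 were tested and none passed, with a median log2 difference of 0.02. Gldn, the Schwann cell protein that gathers nodal sodium channels, was listed at 1.45, 18.8 and 30.0 FPKM with PCL and 24.8, 1.35 and 13.1 FPKM with PLLARS_US. Nfasc, the adhesion protein of node and paranode, was listed at 0.429, 3.70 and 5.46 FPKM with PCL and 3.09, 0.772 and 5.26 FPKM with PLLARS_US. Both were lowest in the myelin-poor pair. That order was held by 2 of the 13 tested genes of the list, against 6.75% of all tested genes. Sptbn1, Dlg4 and Cntnap1 of the list were lowest in the muscle-rich pair. Cntn2, which holds Kcna1 and Kcna2 beside the node, was listed at 0.752, 0.812 and 0.345 FPKM with PCL and 1.06, 2.22 and 2.76 FPKM with PLLARS_US. Its PLLARS_US libraries all exceeded its PCL libraries, with a log2 difference of 0.85 (SE 0.30, limma adjusted p = 0.65). That held for 1 of the 13 tested genes of the list, against 4.33% of all tested genes.

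The muscle-rich libraries themselves differed in some channel genes. With 1 library on each side there was no test, and a 4-fold limit was chosen after values were seen. PLLARS_US replicate 1 was at least 4 times as high as PCL replicate 3 for 5 of the 59 genes, at least 4 times as low for 0, and within that limit for 54. The same count was not made over all tested genes, so it is not a result about channel genes. Among the 5 the ratio was 11.5 for Kcng1, 6.61 for Kcnn3, 5.35 for Kcnq5 and 5.01 for Kcnmb1. Kcng1 and Kcnmb1 stood at only 0.218 and 0.314 FPKM in PCL replicate 3, so their ratios rest on low values. Kcnq5, a pore of the M-type current, was listed at 0.921, 1.13 and 1.29 FPKM with PCL and 6.89, 0.541 and 1.06 FPKM with PLLARS_US. Kcnma1, the BK pore, had a mean just below 1 FPKM and was listed at 0.0687, 0.199 and 0.479 FPKM with PCL and 4.27, 0.234 and 0.390 FPKM with PLLARS_US. Kcnn3, Kcnq5 and Kcnma1 were all highest in PLLARS_US replicate 1. A list of genes of denervated and atrophying muscle, chosen after values were seen, was high in the same library. With 10 of 10 genes found, and Myog and Chrnd at 0 in at least 1 library, it summed to 95.47 to 124 FPKM in the PCL group and to 1662, 131.1 and 128.3 FPKM in the PLLARS_US libraries. Myog, a myogenic factor that rises in denervated muscle, was listed at 0.135, 0.955 and 2.07 FPKM with PCL and 70.4, 0 and 1.06 FPKM with PLLARS_US. Trim63, a ubiquitin ligase of muscle atrophy, was listed at 1.58, 7.63 and 28.1 FPKM with PCL and 1002, 0.554 and 12.2 FPKM with PLLARS_US. The part of that RNA in the levels of Kcnn3, Kcnq5 and Kcnma1 was not tested.

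**Figure D4:**
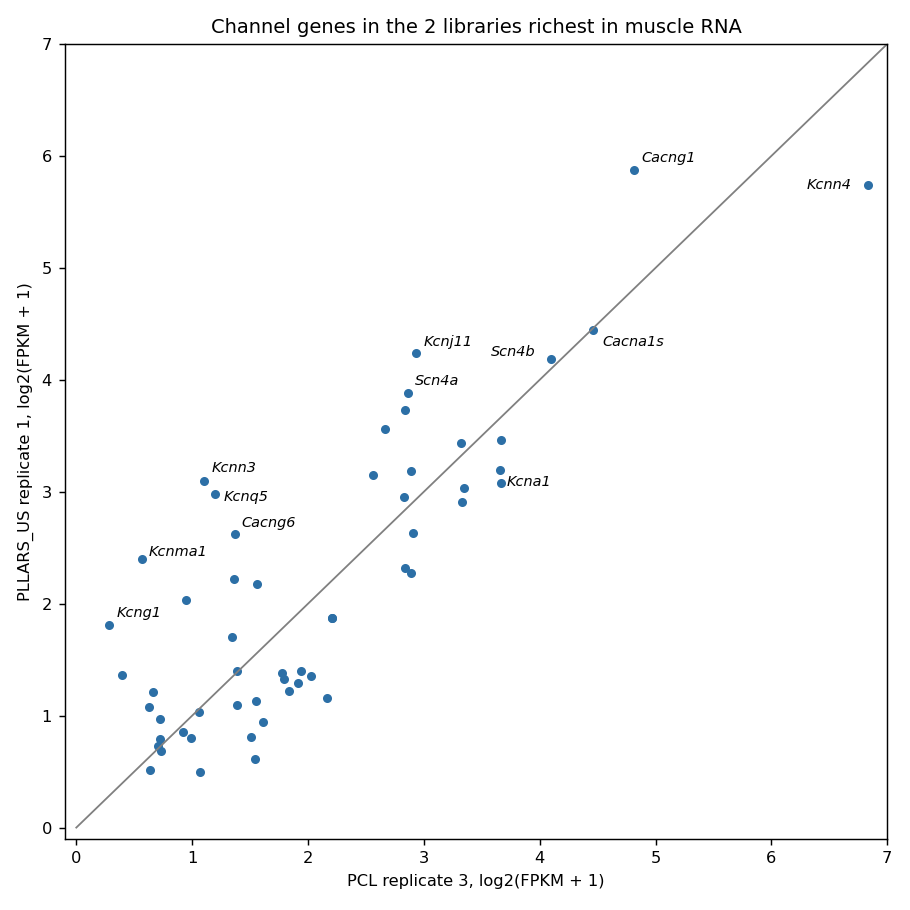
Each point is 1 of 55 of the 59 channel genes or Kcnma1, with log2(FPKM + 1) in PCL replicate 3 on the horizontal axis and in PLLARS_US replicate 1 on the vertical axis, the 2 libraries richest in muscle RNA; the line marks equal levels. Cacna1s and Scn4b lie on or near the line, and Kcnn3, Kcnq5 and Kcng1 lie well above it.

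The remaining 60 channel genes had a mean below 1 FPKM and were not tested. At most 0.5 FPKM in every library was listed for 39 of them, and 10 reached 1 FPKM in some library. Besides Kcnma1, the highest single values were 2.83 FPKM for Kcnh2 in PLLARS_US replicate 3 and 2.00 FPKM for Kcnk7. Just inside the limit was Kcnj14, with a mean of 1.05 FPKM, and just outside were Kcnk7 at 0.986 and Kcnma1 at 0.940 FPKM. A value of 0 in at least 1 library was listed for 29 of the 60, and for Cacng1, Kcnj11, Kcna1 and Kcna7 among the 59. Such a value can be a failed estimate. Hprt1, which every cell uses, was listed at no more than 0.257 FPKM in 5 libraries and at 9.88 FPKM in PLLARS_US replicate 3.

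The deposited positions of 4 genes with an unadjusted p under 0.05, whose build is not settled, were as follows. Kcnn3 (ENSRNOG00000020706) on chromosome 2, plus strand, 188844073 to 188988774 was among those with higher levels. Kcnab1 (ENSRNOG00000056697) on chromosome 2, plus strand, 155718359 to 156009526, Kcnj9 (ENSRNOG00000007645) on chromosome 13, minus strand, 90703036 to 90710287 and Kcnk13 (ENSRNOG00000047363) on chromosome 6, plus strand, 123974798 to 124077197 were the 3 with lower levels. Each span is that of the whole gene model.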

How the data were processed

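RNA of 6 sciatic nerve samples, 3 PCL and 3 PLLARS_US as titled, was analysed from the deposited FPKM per gene model. Per the labels' protocols, poly(A) RNA was selected and sequenced in pairs on an Illumina instrument. Per the submitters' processing notes, the tools were HISAT2 2.1.0, StringTie 1.3.3b, FastQC 0.11.5 and DESeq 1.28.0, whose roles are not stated, and the build was hg38, which is human. Gene identifiers were those of rat, and which build the positions follow is unsettled. Both sheets of the table were identical over 21028 rows, and 1 was used. Labels number the replicates, and the design assigns 6 rats to the groups.

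Levels were tested on log2(FPKM + 1), two-sided, with limma 3.58.1 (R 4.3.3), for the 13720 models with a mean of at least 1 FPKM, by group alone and with the trend option, and p-values were Benjamini-Hochberg adjusted over all of them, with a threshold of 0.05. Differences on this scale are PLLARS_US minus PCL and understate changes of low genes. No counts were analysed here. Depth was estimated from 458 small models of at most 360 bases, whose values under 50 fragments all lay within 0.03 of whole fragments, to the nearest 10000. Genes to describe in every library were, by rule, the 8 of smallest p in each direction, the 8 of highest mean, the 2 highest of each family and the 8 highest with the muscle and myelin orders, apart from some genes whose results are not reported here. The channel genes, lists and orders were chosen with earlier results of these data known. The fit was checked on simulated data, in which 100 genes were changed by a log2 of 1 and 100 by a log2 of 2. It recovered 41 and 85 of them at the adjusted threshold, and 6 unchanged genes passed. The changed genes were drawn from those of higher mean level, so changes of low genes were not covered. In total 19 alternatives were fitted: pseudocounts, filters, scalings, moderation settings, array weights, a replicate block, muscle level as a covariate and libraries left out.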

Additional observations from a re-analysis of the deposited data

How the results depend on the processing

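No channel gene passed the adjusted threshold under any of the 19 alternatives, the smallest adjusted p being 0.0703 with array weights. Over all tested genes, 118 passed with array weights (41 higher, 77 lower), 3 with the muscle level as a covariate and 3 without PLLARS_US replicate 2, and 0 otherwise. The count of channel genes with an unadjusted p under 0.05 was 6 and became 15 with array weights, 2 with the replicate block, 1 with a filter at a mean of 5 FPKM (14 genes tested), and 2 to 10 with 1 library left out: 3 when PCL replicate 2 was left out, 10 for PLLARS_US replicate 1 and 2 for PLLARS_US replicate 3. The median log2 difference ranged from -0.222 to 0.14 with 1 library left out. Of 237 values for the 13 genes shown with the smallest p, 236 kept their direction and 1 reversed: Kcnj8 became -0.00682 without both muscle-rich libraries. Deviations of same-numbered libraries from their group had correlations of -0.5, 0.146 and -0.32. PCL replicate 3 and PLLARS_US replicate 1 had 0.629, and PCL replicate 1 and PLLARS_US replicate 2 had 0.54. With 3 libraries a group that differ in muscle and myelin RNA, these values cannot show whether the numbers pair the samples. Genes below a mean of 5 FPKM have no value under that filter. With 3 libraries a group, exact permutation cannot go below a p of 0.1, and an FPKM of 1 stands for few fragments in short models.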
